A study of Mus musculus with 34 samples.

Results

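Ebf4, Hcn4 and Nobox were followed through 34 RNA-seq libraries of mouse embryonic stem (ES) cells that carried or lacked MTA proteins. The 3 genes were taken because the study names them as markers of inappropriate lineages in ES cells without any MTA protein. It measured them by RT-qPCR over a course of neuroectoderm differentiation. The study also saw them misexpressed, not always as strongly, in cells lacking Mbd3, a partner of the MTA proteins. Ebf4, Hcn4 and Nobox are 3 of the 48709 genes counted in 16 libraries and of the 22018 genes counted in the other 18. Because the study named them for being expressed in the triple mutant, their direction there is not independent evidence and is given as a description with its test.

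The MTA proteins Mta1, Mta2 and Mta3 are scaffold subunits of NuRD, a complex that joins nucleosome remodelling by Chd4 to histone deacetylation by Hdac1 and Hdac2. NuRD sits at promoters and enhancers of ES cells and tunes their transcription. ES cells are kept self-renewing by inhibitors of Mek and Gsk3 together with the cytokine LIF (2i+LIF, here 2iL), and turn towards neuroectoderm when these are removed in N2B27 medium.

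All libraries were made from ES cells of strain 129/Ola. In the set of 16, the Control cells are primary ES cells with 1 intact and 1 deleted Mta1 allele, intact Mta2 and floxed but functional Mta3, derived alongside the parent of the mutant. The Mta123KO cells lack Mta1, had exons of Mta2 removed with CRISPR/Cas9, and lost Mta3 through Cre. Each genotype has 4 libraries labelled 2i+LIF and 4 labelled 48h in N2B27 without inhibitors or LIF, numbered as 2 libraries from each of 2 lines (library 1_2 is line 1, second library). In the set of 18, all in 2i+LIF, Mta1_del/del was compared with its parent Mta1_flox/flox, Mta3_del/del with its parent Mta3_flox/flox, and Mta2_KO, a primary line, with Mta2_WT, each with 3 libraries. The Mta1 and Mta3 deletions were made with Cre in the floxed parents, so those mutants and parents differ also in having been exposed to Cre.

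Ebf4 (ENSMUSG00000053552) encodes a member of the early B cell factor family, helix-loop-helix transcription factors whose best known member, Ebf1, sets B lymphocyte fate and which also act in olfactory neurons. It lies on the forward strand of chr2:130295169-130370481 (GRCm38), has 6 annotated transcripts and a summed exon length of 3236 bases. Hcn4 (ENSMUSG00000032338) encodes the hyperpolarisation-activated, cyclic nucleotide-gated cation channel that carries most of the pacemaker current of the sinoatrial node, and it is an early marker of the first heart field. It lies on the forward strand of chr9:58823412-58863175, with 1 annotated transcript and 6118 exonic bases. Nobox (ENSMUSG00000029736) encodes a homeobox transcription factor of oocytes that is needed for follicles to grow past the primordial stage. It lies on the reverse strand of chr6:43303674-43309554, with 3 annotated transcripts and 2012 exonic bases. Counts were taken over exons. None of the 3 genes overlaps another annotated gene, and no window of 50 exonic bases was shared with any other annotated transcript, so reads of a near-identical copy do not enter their counts by this measure.

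The promoters are shown because the 3 genes rose together in the triple mutant and differ in the CpG content of their starts. Each run covers 250 bases before and 50 after the RefSeq start on the gene's own strand (RefSeq, GRCm38.p6), with every CpG in capitals. The windows are chr2:130295689-130295988 for Ebf4, chr9:58822699-58822998 for Hcn4 and chr6:43309505-43309804 on the reverse strand for Nobox. The RefSeq starts of Ebf4 and Hcn4 differ from those of the annotation used for the gene positions.
Ebf4: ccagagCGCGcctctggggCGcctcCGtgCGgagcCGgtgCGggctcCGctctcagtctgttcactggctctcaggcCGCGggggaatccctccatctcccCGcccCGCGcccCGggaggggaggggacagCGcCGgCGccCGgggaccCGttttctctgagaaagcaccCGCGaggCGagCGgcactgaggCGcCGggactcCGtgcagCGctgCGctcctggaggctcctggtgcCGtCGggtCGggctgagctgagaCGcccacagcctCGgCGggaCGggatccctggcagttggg
Hcn4: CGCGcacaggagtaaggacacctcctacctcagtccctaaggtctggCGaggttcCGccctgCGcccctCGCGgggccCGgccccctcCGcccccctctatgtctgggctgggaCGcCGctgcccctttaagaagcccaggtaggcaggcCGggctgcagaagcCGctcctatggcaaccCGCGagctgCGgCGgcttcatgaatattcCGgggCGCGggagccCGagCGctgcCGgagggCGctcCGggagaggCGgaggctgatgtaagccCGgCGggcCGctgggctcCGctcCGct
Nobox: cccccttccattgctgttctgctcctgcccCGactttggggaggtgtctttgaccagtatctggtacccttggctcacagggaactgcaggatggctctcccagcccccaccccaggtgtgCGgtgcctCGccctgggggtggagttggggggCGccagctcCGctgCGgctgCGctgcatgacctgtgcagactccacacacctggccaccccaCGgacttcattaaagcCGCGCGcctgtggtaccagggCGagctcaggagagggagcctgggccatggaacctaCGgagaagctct
The Ebf4 window held 35 CpGs and the Hcn4 window 31, against a median of 7 over 32851 mouse promoters of the same length, and 93.8% and 90.5% of promoters held no more. The Nobox window held 13, and 63.7% of promoters held no more. Their GC contents were 74.3%, 71.7% and 65.0%, against a median of 52.7%. None of the 3 windows held, on either strand, an EBF site (TCCC and GGGA with 2 bases of any kind between them), the NOBOX site TAATTG or the TATA box TATAAA. Of all promoters, 0.904%, 8.0% and 13.6% held them.

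Library totals ran from 37855790 to 57602285 counts in the set of 16 and from 13105820 to 40613585 in the set of 18, so 3 counts were worth 0.0521 to 0.0792 and 0.0739 to 0.229 CPM, the count scaled to a fixed library total. Mta2 fell from 123 ± 7.84 to 6.71 ± 2.12 CPM (SD, n = 4) in the Mta123KO libraries labelled 2iL, and Mta3 from 65.1 to 18.9 CPM. Mta1 had 42.0 CPM in these Control and 24.6 in these Mta123KO libraries (log2 fold change -0.76, adjusted p = 0.0061 in edgeR), a size under the fold threshold used here, with 1 allele already deleted in the Control. The culture labels are uncertain. In Control, Nanog and Esrrb, which mark self-renewing ES cells, had 67.5 ± 15.5 and 62.4 ± 13.5 CPM (n = 4) labelled 2iL but 933 ± 79.6 and 668 ± 36.0 CPM labelled 48h, and the names of the deposited tables give each of the 16 libraries the opposite culture to its label. In Mta1_flox/flox, Mta2_WT and Mta3_flox/flox, all in 2i+LIF, mean Nanog was 1086, 1605 and 1264 CPM. Mean Esrrb was 1002, 762 and 651 CPM in the same order. Set side by side without a test, both genes stood nearer there to Control labelled 48h. The labels are followed throughout as "labelled 2iL" and "labelled 48h". Exchanging them would exchange the 2 genotype comparisons and turn the sign of each change with culture.

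In Control cells the 3 genes were close to silent. Values are CPM after TMM scaling, in the order of libraries 1_1, 1_2, 2_1 and 2_2. Ebf4 stood at 0.759, 0.602, 0.683 and 0.488 CPM in the Control libraries labelled 2iL and at 0.370, 0.893, 0.575 and 0.536 in those labelled 48h. Hcn4 stood at 0.459, 0.602, 0.932 and 0.776 CPM labelled 2iL and at 0.405, 0.420, 0.646 and 0.816 labelled 48h. Both genes had overlapping ranges in the 2 cultures, on 16 to 45 reads a library. Nobox stood at 0.380, 0.457, 0.373 and 0.377 CPM labelled 2iL, and at 0.159, 0.105, 0.144 and 0.0466 labelled 48h, where it rested on 9, 4, 6 and 2 reads. The Nobox groups did not overlap, and library 2_2 labelled 48h was under the level of 3 counts.

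In the parents and wild type of the set of 18 the levels of the 3 genes spread more widely than in Control. That set was counted over fewer genes and from single-end reads, so levels are placed side by side across sets and not tested. The mean level of Ebf4 was 1.15 ± 1.34 CPM in Mta1_flox/flox, 0.669 ± 0.280 in Mta2_WT and 1.27 ± 0.484 in Mta3_flox/flox (SD, n = 3). Hcn4 had 0.539 ± 0.351, 0.147 ± 0.0998 and 1.11 ± 0.206 CPM in the same order. Nobox had 0.245 ± 0.175, 0.284 ± 0.140 and 0.564 ± 0.369 CPM. The 3 parents overlapped for Ebf4 and for Nobox, whereas for Hcn4 the lowest Mta3_flox/flox library (0.882 CPM) lay above each Mta2_WT library (0.0575, 0.130 and 0.255). Per kilobase of exon, the means in Control libraries labelled 2iL were 0.196 ± 0.0359 CPM per kb for Ebf4, 0.113 ± 0.0336 for Hcn4 and 0.197 ± 0.0201 for Nobox (n = 4), so per length Ebf4 and Nobox did not differ beyond their spread and Hcn4 lay below both.

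Loss of all 3 MTA proteins was accompanied by higher levels of each of the 3 genes in both cultures. Ebf4 reached 17.2, 16.5, 7.18 and 6.76 CPM in the Mta123KO libraries labelled 2iL, a mean of 11.9 ± 5.71 against 0.633 ± 0.116 in Control (SD, n = 4). Hcn4 reached 18.2, 21.5, 6.33 and 6.78 CPM, a mean of 13.2 ± 7.80 against 0.692 ± 0.205. For both genes each Mta123KO library lay above each Control library. Nobox reached 6.73, 6.41, 0.971 and 1.03 CPM, a mean of 3.79 ± 3.22 against 0.396 ± 0.0404, so that line 1 stood far above Control and line 2 a little above it, again without overlap. On raw counts, Ebf4 went from 22 to 38 reads a library to 296 to 811, Hcn4 from 23 to 45 reads to 261 to 949, and Nobox from 17 to 22 reads to 40 to 317.

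In edgeR's quasi-likelihood test across all genes, Ebf4 was 18.9-fold higher in the Mta123KO libraries labelled 2iL (log2 4.24, SE 0.38, 95% interval 3.38 to 5.11, adjusted p = 3.96e-05). Hcn4 was 19.3-fold higher (log2 4.27, SE 0.48, 3.17 to 5.36, adjusted p = 0.000129). Nobox was 9.62-fold higher (log2 3.27, SE 0.70, 1.69 to 4.84, adjusted p = 0.00395). All 3 thus passed both thresholds (adjusted p under 0.05 and a log2 change above 1), as did 13.2% of the 21651 genes tested in the same direction, with a median log2 change of 0.00585 over all genes. When the 2 libraries of a line were summed, leaving 2 samples a genotype, Ebf4 and Hcn4 remained called, and Nobox did not (log2 3.26, adjusted p = 0.0802). Nothing in the labels says that the libraries of a line are separate cultures, so the p-values measure the spread between these libraries and can be too small.

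**Figure D1:**
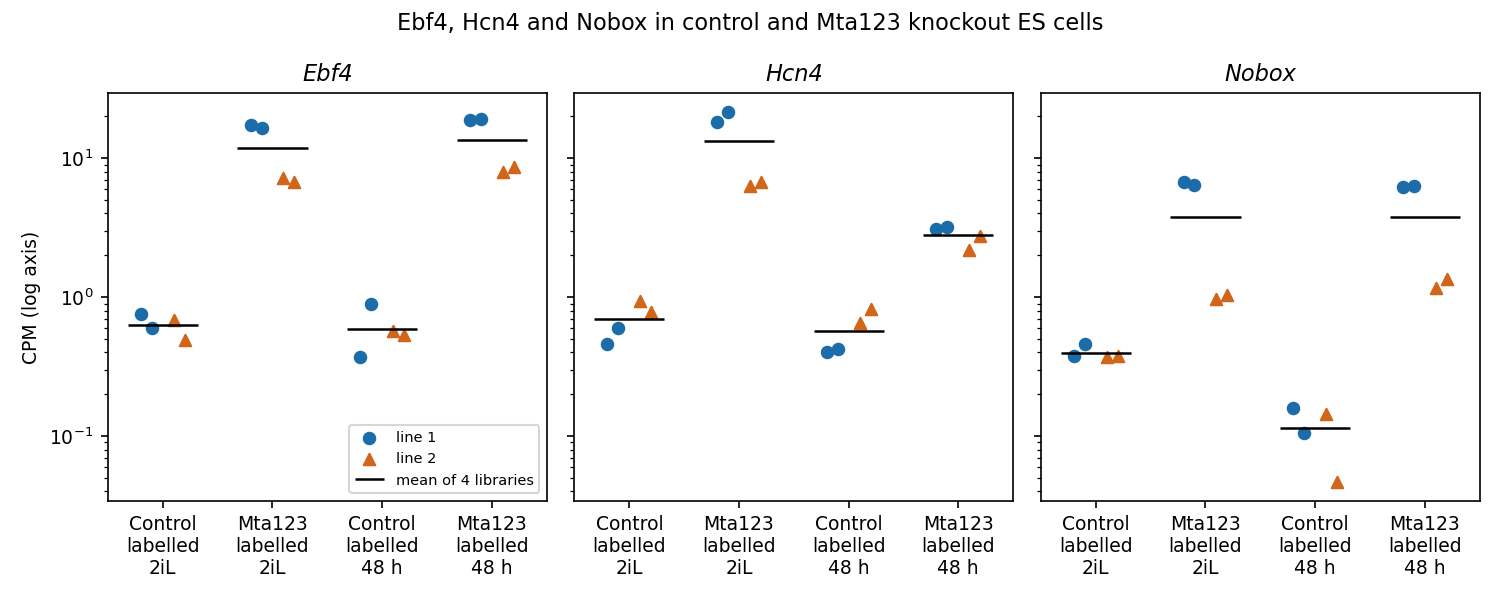
Levels of Ebf4, Hcn4 and Nobox in the 16 Control and Mta123KO libraries, in CPM on a log axis. Each point is 1 library, circles are line 1 and triangles line 2, and the bar is the mean of 4 libraries. For each gene and culture the Mta123KO libraries lie above the Control libraries, and line 1 lies above line 2 in the Mta123KO cells.

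The libraries labelled 48h gave the same order of genotypes with other sizes. Ebf4 stood at 18.7, 19.3, 7.93 and 8.61 CPM in Mta123KO (13.6 ± 6.19, n = 4) against 0.594 ± 0.219 in Control. Hcn4 stood at 3.07, 3.21, 2.19 and 2.75 CPM (2.81 ± 0.454) against 0.572 ± 0.196. Nobox stood at 6.24, 6.29, 1.16 and 1.35 CPM (3.76 ± 2.89) against 0.113 ± 0.050. Genotypes did not overlap for any of the 3 genes, and the lowest Mta123KO library was 2.19 CPM for Hcn4 and 1.16 CPM for Nobox. The fold changes were 23.4 for Ebf4 (log2 4.55, SE 0.41, 95% interval 3.63 to 5.47, adjusted p = 3.50e-05 in edgeR), 4.94 for Hcn4 (log2 2.30, SE 0.26, 1.72 to 2.89, adjusted p = 0.000120) and 31.9 for Nobox (log2 5.0, SE 0.74, 3.33 to 6.66, adjusted p = 0.000556). Of the 21079 genes tested here, 14.1% were called higher. The Nobox fold is measured against 21 reads in all 4 Control libraries. In bulk RNA a larger share of cells that express a gene and more RNA in each such cell cannot be told apart, and this holds for each level given here.

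Per length, Hcn4 lay below Nobox in the Mta123KO libraries labelled 48h, and the 2 genes had no clear order in those labelled 2iL. Among libraries labelled 2iL the means were 3.68 ± 1.76 CPM per kb for Ebf4, 2.16 ± 1.27 for Hcn4 and 1.88 ± 1.60 for Nobox (n = 4), which overlap. There line 1 had 2.98 and 3.51 CPM per kb for Hcn4 and 3.34 and 3.19 for Nobox. Line 2 had 1.04 and 1.11 for Hcn4 and 0.483 and 0.513 for Nobox. Among those labelled 48h, Ebf4 had 4.21 ± 1.91 CPM per kb, Nobox 1.87 ± 1.44 and Hcn4 0.459 ± 0.0742.

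The 2 Mta123KO lines differed in how far the genes rose. In the libraries labelled 2iL, the line means were 16.8 CPM in line 1 and 6.97 in line 2 for Ebf4, 19.9 and 6.56 for Hcn4, and 6.57 and 1.0 for Nobox (n = 2 libraries each). Against the 4 Control libraries, line 1 gave log2 changes of 4.73, 4.88 and 4.05 and line 2 of 3.47, 3.29 and 1.35, each called higher, with 17% and 13.1% of all genes called higher in the lines. The direct test of line 1 against line 2 gave 1.27 for Ebf4 (SE 0.13, adjusted p = 3.26e-06 in edgeR), 1.59 for Hcn4 (SE 0.13, adjusted p = 4.36e-07) and 2.70 for Nobox (SE 0.19, adjusted p = 1.14e-07). All 3 were called, against 7.54% of all genes called higher in line 1. Here and in the other tests of single lines, the p-values measure only the spread between libraries of a line.

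Labelled 48h, the line means were 19.0 and 8.27 CPM for Ebf4, 3.14 and 2.47 for Hcn4, and 6.26 and 1.26 for Nobox. Each line was again above Control for each gene, with log2 changes of 5.05, 2.52 and 5.76 in line 1 and 3.85, 2.17 and 3.44 in line 2 (17.2% and 14.3% of genes called higher). Line 1 exceeded line 2 by 1.21 for Ebf4 (SE 0.18, adjusted p = 0.000644 in edgeR) and by 2.32 for Nobox (SE 0.22, adjusted p = 3.22e-05), and 6.13% of all genes were called higher in line 1. The Hcn4 difference was 0.35 (SE 0.20, adjusted p = 0.209) and was not called. Between the 2 Control lines none of the 3 genes was called. The largest Control difference was in Hcn4, which had log2 differences of -0.69 labelled 2iL (adjusted p = 0.142) and -0.83 labelled 48h (adjusted p = 0.172), with line 2 above line 1. Of all genes, 1.3% and 1.01% were called between the Control lines in either direction.

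The change with culture followed a different course in each of the 3 genes. Ebf4 did not pass the test in either genotype, with a log2 difference (labelled 48h minus labelled 2iL) of -0.10 (SE 0.29, adjusted p = 0.780 in edgeR) in Control and 0.19 (SE 0.42, adjusted p = 0.792) in Mta123KO. Hcn4 was lower in the Mta123KO libraries labelled 48h by a log2 difference of -2.24 (SE 0.42, adjusted p = 0.00677), and in Control had -0.27 (SE 0.31, adjusted p = 0.485). The 4 Mta123KO values labelled 48h (2.19 to 3.21 CPM) lay below the 4 labelled 2iL (6.33 to 21.5 CPM). With the 2 libraries of a line summed the Hcn4 change was -2.22 (adjusted p = 0.241), a fit in which no gene at all was called by edgeR against 2035 with the libraries kept apart. Of all genes in Mta123KO, 4.62% were called lower in the libraries labelled 48h.

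Nobox showed the other pattern. In Control it was lower in the libraries labelled 48h by a log2 difference of -1.74 (SE 0.34, adjusted p = 0.00111 in edgeR), as were 13.2% of all genes, and its Control groups did not overlap. In Mta123KO its change was -0.02 (SE 0.81, adjusted p = 0.989). A fit that placed all 16 libraries together gave the Control change as -1.75 with an adjusted p of 0.128.

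A direct test of whether the genotype effect differed between cultures gave -1.95 for Hcn4 (SE 0.56, 95% interval -3.14 to -0.77, adjusted p = 0.0187 in edgeR). In this fit the rise of Hcn4 was thus smaller in the libraries labelled 48h. Genes called with this sign made up 5.37% of those tested, and 7.66% were called with the other. For Ebf4 the difference was 0.31 (SE 0.57, adjusted p = 0.745). For Nobox it was 1.74 (SE 1.11, -0.62 to 4.10, adjusted p = 0.294), an interval that takes in 0. The libraries of the 2 cultures come from the same lines, and with the line and library number as a replicate block the Nobox difference was 1.84 and was called (adjusted p = 0.00131 in edgeR). The block takes out the difference in level between lines, and its p-value rests on 2 lines a genotype. The interaction was not fitted with the libraries of a line summed, a setting in which the Hcn4 change with culture was not called.

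Within lines, Hcn4 had a log2 change with culture of -2.66 (SE 0.15) in Mta123KO line 1 and of -1.40 (SE 0.16) in line 2, both called lower together with 6.55% and 6.34% of genes. The changes of the lines differed by -1.26 (SE 0.22, adjusted p = 0.00228 in edgeR), a difference called with this sign in 0.893% of genes. Nobox in the Control lines had -1.59 and -1.96, both called, with 13.8% and 13% of all genes called lower. Ebf4 and Nobox were called in neither Mta123KO line.

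**Figure D2:**
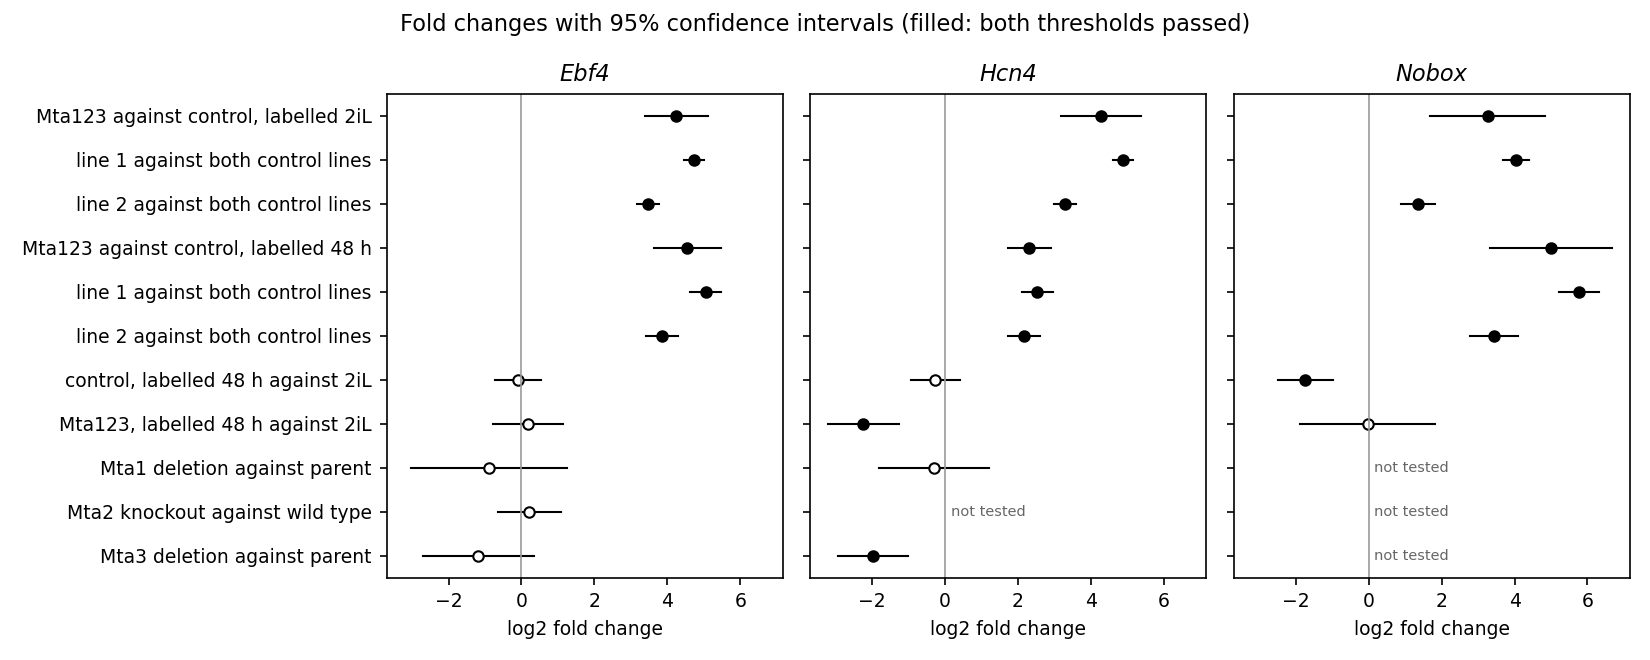
Log2 fold changes of Ebf4, Hcn4 and Nobox in each comparison, with 95% confidence intervals from edgeR. Filled points passed both thresholds. The Mta123KO comparisons lie to the right of 0 for each gene and line, Hcn4 changed with culture in Mta123KO and Nobox in Control, and genes left out by the filter on low counts are marked as not tested.

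Loss of a single MTA protein was not accompanied by a called rise in any of the 3 genes. In Mta1_del/del, Ebf4 stood at 0.333, 0.971 and 0.516 CPM against 0.476, 2.70 and 0.285 in Mta1_flox/flox, and Hcn4 at 0.416, 0.631 and 0.258 against 0.904, 0.510 and 0.203. Both sets of values overlap, with log2 changes of -0.89 (SE 0.91) and -0.31 (SE 0.64). No gene at all (0%) was called of the 14561 tested by edgeR, with 50 at an unadjusted p under 0.05, and DESeq2 called none either. This fit does not use the pairing of same-numbered libraries, which correlated at 0.445 to 0.641. With the replicate block, 468 genes had an unadjusted p under 0.05 in edgeR, and again none was called. The absence of calls in the unpaired fit is weak evidence of no change. Nobox rested on 1, 0 and 2 reads in Mta1_del/del and on 2, 6 and 5 in the parent and was left out by the filter on low counts. The library with 0 reads allows up to 0.153 CPM by the limit of 3 counts, which covers counting error only. The Ebf4 value turned on 1 library, since without the parent's replicate 2 the log2 change was 0.68. Mta1 itself went from 84.3 to 43.1 CPM in this comparison (log2 -0.97) and was not called either.

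In Mta2_KO, Ebf4 stood at 0.867, 0.526 and 0.939 CPM against 0.950, 0.390 and 0.669 in Mta2_WT, with a log2 change of 0.21 (SE 0.38, adjusted p = 0.684 in edgeR). Hcn4 stood at 0.236, 0.321 and 0.201 CPM against 0.0575, 0.130 and 0.255, and Nobox at 0.0263, 0.175 and 0.201 against 0.403, 0.130 and 0.319. Mutant and wild type overlapped for each gene. Hcn4 and Nobox were left out by the filter, and a fit without it gave 0.76 (adjusted p = 0.457) and -1.11 (adjusted p = 0.313). In that comparison 5.31% of genes were called higher, and Mta2 fell from 237 to 10.5 CPM.

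In Mta3_del/del, Hcn4 was lower than in its parent, the opposite direction to the triple mutant. It stood at 0.221, 0.349 and 0.306 CPM (0.292 ± 0.0654, n = 3) against 0.882, 1.15 and 1.29 in Mta3_flox/flox (1.11 ± 0.206), without overlap. These levels rested on 6, 9 and 7 reads in the mutant and on 13, 33 and 33 in the parent. The log2 change was -1.97 (SE 0.42, 95% interval -2.94 to -1.01, adjusted p = 0.0237 in edgeR), with 5.25% of the 15522 genes called lower and 0.812% called higher. Leaving out any 1 library other than Mta3_del/del replicate 2 ended the call, with log2 changes of -1.78 to -2.09 and adjusted p-values of 0.0529 to 0.117. Of 5 fibroblast markers, genes of another cell type that ES cultures can hold, 2 were called lower. Acta2 did not fall, at a mean of 11.8 CPM in the parent and 12.4 in the mutant. The summed level of the 5 was 20.6, 31.7 and 70.5 CPM in the parent and 17.3 to 19.8 in the mutant. A fall was not particular to these markers. Of the working heart muscle genes listed below, 1 of 15 tested had a positive log2 change here, and of the ES cell markers 3 of 6. The olfactory receptor genes, which ES cells hardly use, summed to 170, 148 and 40.5 CPM in the parent and to 46.5, 84.8 and 33.7 in the mutant, against 4.83 to 8.72 CPM in the set of 16. The part of either in the Hcn4 result was not tested.

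Ebf4 stood at 0.184, 1.2 and 0.349 CPM in Mta3_del/del against 1.09, 1.81 and 0.897 in the parent (log2 -1.18, SE 0.67, adjusted p = 0.228 in edgeR). Without mutant replicate 2, the highest of its group, the log2 change was -2.32 and was called (adjusted p = 0.0282). Nobox stood at 0.110, 0.194 and 0.175 CPM against 0.203, 0.941 and 0.546 and was left out by the filter (log2 -1.86, adjusted p = 0.0990 without it). The mutant values of Nobox, on 3 to 5 reads, lay below the parent values, of which the lowest also rested on 3 reads.

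**Figure D3:**
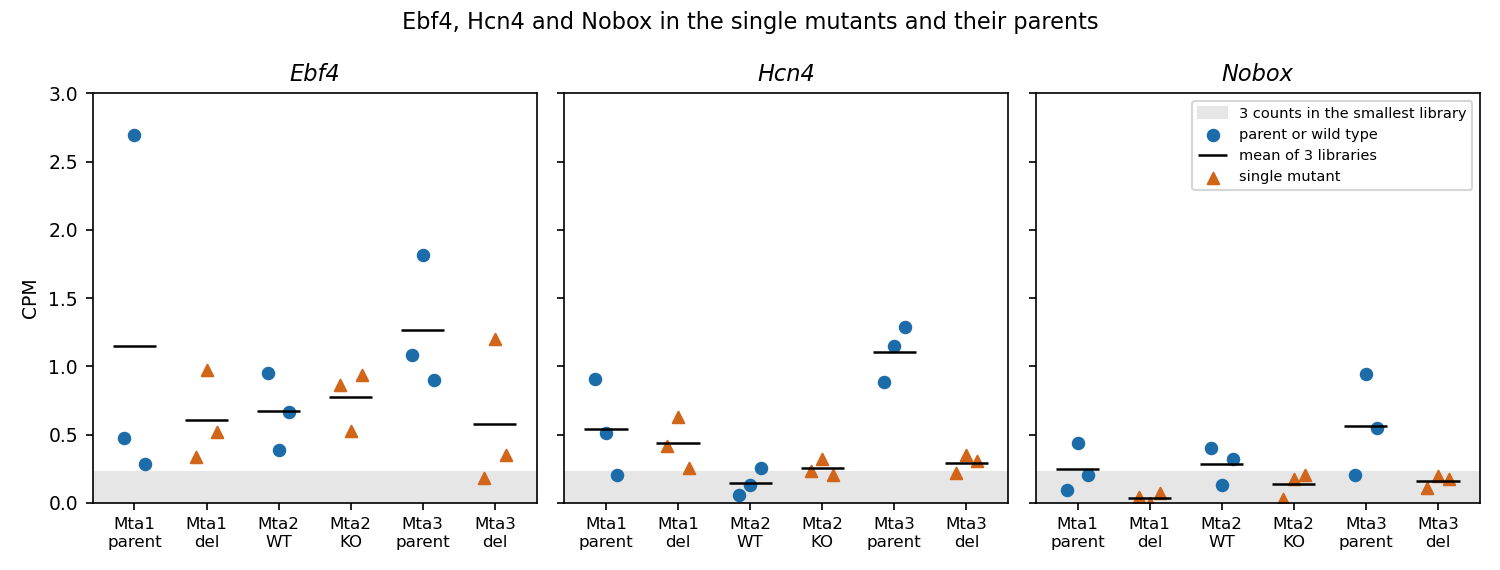
Levels of Ebf4, Hcn4 and Nobox in the 18 libraries of the single mutants and their parents or wild type, in CPM on a linear axis. Each point is 1 library, bars are means of 3, and the grey band ends at the value of 3 counts in the smallest library. Hcn4 in the Mta3 set is the only case called, with the mutant at 0.221 to 0.349 CPM and the parent at 0.882 to 1.29.

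The family and the cell type of each gene were then examined through lists of related genes. A gene near 0 in Control passes the filter on low counts only through its Mta123KO libraries, which fixes its direction. The counts and medians of the lists include such genes and are descriptions. In the background, 13.2% of genes were called higher and 7.43% lower labelled 2iL, and 14.1% higher and 5.93% lower labelled 48h. RLE scaling changed no call among the listed genes. Scaling to spike-ins, which moved the median of all genes by -0.18 labelled 48h, turned no sign of a called gene but ended the calls of Kcnj3 and Gata4 labelled 2iL and added Tbx3 (-1.06), Zp3 (-1.12) and Sox2 as called lower labelled 48h. Of the EBF factors, 4 were tested labelled 2iL and 2 labelled 48h, and Ebf4 was the one called higher in each. Ebf1 was called lower in both cultures, from 11.5 ± 4.77 to 1.71 ± 0.415 CPM labelled 2iL (log2 -2.73) and from 4.32 ± 0.741 to 1.65 ± 0.899 labelled 48h (log2 -1.39, n = 4). Ebf2 (0.540 CPM in Control, 0.445 in Mta123KO) and Ebf3 (0.528 and 0.632 CPM) were not called in the libraries labelled 2iL. Labelled 48h neither passed the filter and neither was tested, and there Ebf3 had 0.0415 ± 0.0423 CPM in Control and 0.581 ± 0.585 in Mta123KO, and Ebf2 0.101 ± 0.0645 and 0.110 ± 0.055. The zinc finger proteins that bind EBF factors did not move as one. Zfp423 had a log2 change of -0.15 labelled 2iL and rose by 2.30 labelled 48h, whereas Zfp521 rose by 1.30 labelled 2iL and fell by 1.22 labelled 48h.

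Among 11 genes of early B cells, the best known setting of EBF factors, 3 of the 7 tested were called higher labelled 2iL and 2 of 7 labelled 48h, and none was called lower. The medians of their log2 changes were 0.43 and 0.65. Igll1, a part of the surrogate light chain, went from 0.0738 ± 0.0554 to 2.27 ± 0.565 CPM labelled 2iL (log2 4.92) and from 0.944 ± 0.124 to 2.15 ± 0.178 labelled 48h (1.2). Cd79b, a signalling chain of the B cell receptor, rose by 3.51 and 1.87, and Vpreb3 by 1.40 labelled 2iL. Pax5, the factor that commits cells to the B lineage, was at 0.717 ± 0.128 CPM in Control and 0.949 ± 0.504 in Mta123KO labelled 2iL and was not called. Of 7 genes of olfactory sensory neurons, 2 were called higher and 1 lower of 6 tested labelled 2iL, and 2 were called lower of 5 tested labelled 48h. The 2 higher were Stoml3 (0.0159 to 0.501 CPM, log2 4.79, with Control at or near 0) and the olfactory G protein Gnal (1.91). Omp, the marker of mature olfactory neurons, had log2 changes of -1.42 and -1.06 and Lhx2 of -1.14 labelled 48h.

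Neither Hcn2 nor Hcn3, channels of the same family, was called higher with Hcn4. Hcn3 was called lower in both cultures, from 5.35 ± 0.369 to 1.78 ± 0.666 CPM labelled 2iL (log2 -1.57) and from 2.57 ± 0.428 to 1.12 ± 0.210 labelled 48h (-1.19). Hcn2, at 7.23 ± 0.564 and 6.94 ± 0.429 CPM labelled 2iL, was not called in either culture.

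Of 13 genes of cardiac pacemaker cells, 3 of 11 tested were called higher and 2 lower labelled 2iL, and 5 of 10 higher and 1 lower labelled 48h (medians 0.55 and 0.77). Called higher in both were Cacna1d, a pacemaking L-type calcium channel (log2 2.04 and 3.21), and the calcium release channel Ryr2 (1.49 and 1.30). The T-type calcium channel Cacna1g, at 2.36 ± 0.32 and 3.97 ± 1.10 CPM labelled 2iL, rose from 0.144 ± 0.120 to 4.16 ± 1.91 CPM labelled 48h (log2 4.83). The node transcription factors diverged. Tbx3, which ES cells also use, rose by 2.33 labelled 2iL and had -0.84 labelled 48h, Shox2 rose by 2.25 and Tbx18 fell by 2.01 labelled 48h, and Isl1 was called in neither. Slc8a1, the sodium-calcium exchanger, fell by 2.71 and Kcnj3 by 1.33 labelled 2iL.

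Of 16 genes of working heart muscle, 7 of 13 tested were called higher and 1 lower labelled 2iL, and 6 of 12 higher and 1 lower labelled 48h. Their median log2 changes were 1.94 and 1.83, against 0.00585 and 0.00526 over all genes. These medians include genes such as Actc1 that were tested only through their level in Mta123KO, so they are no test of the list. The sarcomere gene Actc1 had the largest change, from 0.0154 ± 0.0198 to 2.74 ± 2.46 CPM labelled 2iL (log2 7.24) and from 0.0104 ± 0.0123 to 9.91 ± 5.61 CPM labelled 48h (9.49), with Control libraries at or near 0, so the size of these fitted changes depends on the prior count. Myh6, Myh7 and Myl2 were called higher in both cultures as well, Myh7 going from 2.68 ± 0.258 to 13.9 ± 3.16 and from 0.362 ± 0.135 to 5.73 ± 2.94 CPM. The cardiac transcription factors of the list did not move as one. Labelled 2iL they included factors called higher as well as lower, and not all are reported here. Gata4 was called lower in both cultures (-1.25 and -1.98), and Nkx2-5 had -0.22 labelled 2iL and was left out by the filter labelled 48h.

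For Nobox, the related genes are those of oocytes. Of 6 oocyte transcription factors including Nobox, 3 were tested, and Nobox and Sohlh2 were called higher in both cultures. Sohlh2, a helix-loop-helix factor of primordial oocytes and spermatogonia, rose from 35.0 ± 6.80 to 122 ± 4.62 CPM labelled 2iL (log2 1.82) and from 24.8 ± 3.34 to 89.0 ± 4.45 labelled 48h (1.85). Taf4b was not called, and Figla, Lhx8 and Sohlh1 were left out by the filter. Figla had 0.0972 ± 0.0652 CPM in Control and 0.0944 ± 0.0243 in Mta123KO labelled 2iL. Of 15 genes for oocyte products, none of 5 tested was called higher labelled 2iL and 2 of 6 labelled 48h. Those 2 were Bmp15, a growth factor secreted by oocytes, from 0.00657 ± 0.0131 to 0.751 ± 0.338 CPM, and Nlrp14 (log2 1.72). Zp3, a zona pellucida protein, had log2 changes of -1.07 and -0.93. Gdf9, the other oocyte growth factor, had 0.127 ± 0.0595 CPM in Control and 0.0658 ± 0.0445 in Mta123KO labelled 2iL. Of 3 granulosa cell markers, Amh alone was tested and was not called.

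**Figure D4:**
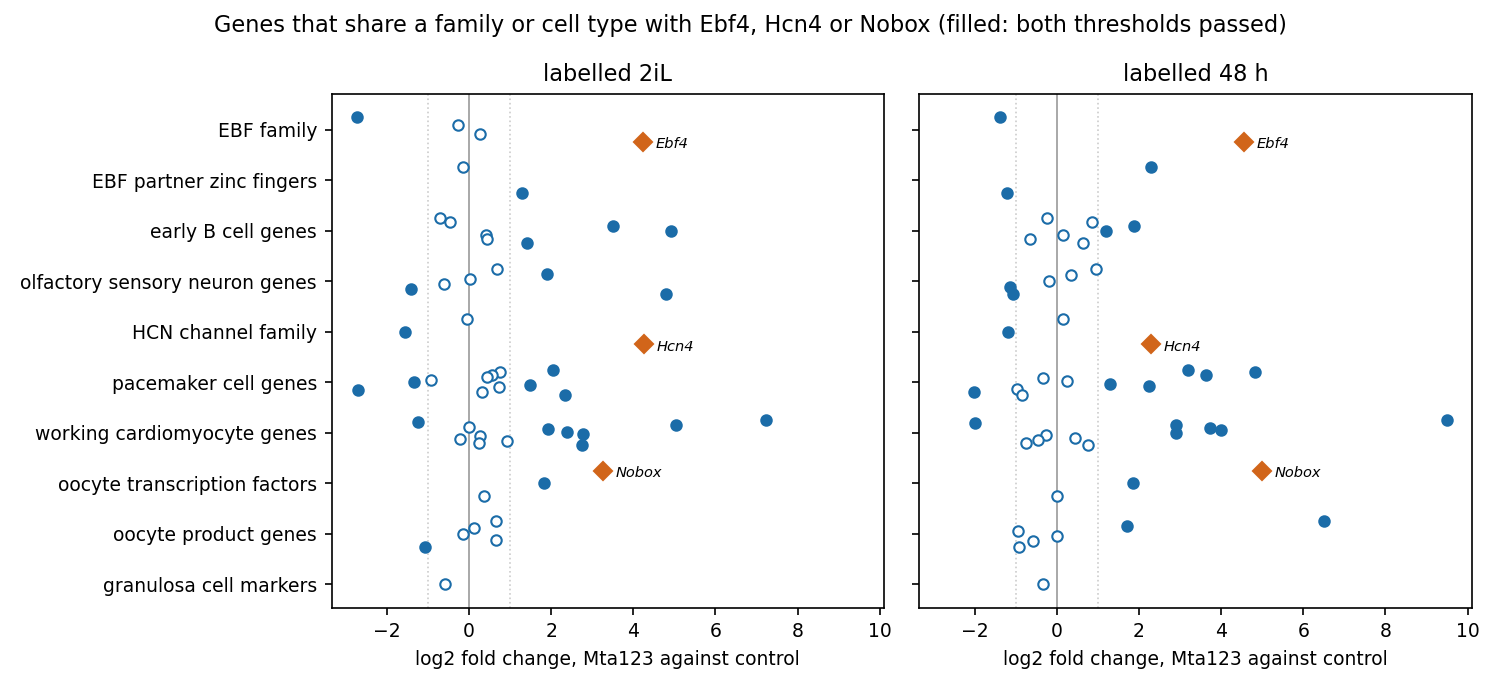
Log2 fold changes of Mta123KO against Control for genes that share a family or cell type with Ebf4, Hcn4 or Nobox, by list and culture label. Each point is 1 gene, filled where both thresholds were passed, and diamonds are the 3 genes themselves. Of the EBF and HCN genes plotted, Ebf4 and Hcn4 alone lie above the threshold.

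Markers of other cells a culture could hold were examined beside these. Of 4 trophoblast genes, which include those the study names with Ebf4, Hcn4 and Nobox, all 4 were called higher labelled 2iL and 2 labelled 48h. Elf5 had log2 changes of 3.33 and 2.28 and Gata3 of 5.61 and 4.22, whereas Cdx2 (2.06) and Eomes (1.86) were called labelled 2iL alone. Cdx2 was close to the threshold, with an adjusted p of 0.0494 in edgeR under RLE scaling. By RT-qPCR during differentiation the study found Elf5 and Gata3 misexpressed, and not Cdx2 or Eomes. Of 5 fibroblast markers, 3 of 3 tested were called higher labelled 2iL and 2 of 3 labelled 48h. Col1a1 was not called labelled 48h (log2 -0.23), and Col1a2, left out by the filter, had 0.544 CPM in Control and 0.0711 in Mta123KO labelled 2iL, and 0.151 and 0.0846 labelled 48h. The summed level of the 5 was 1.41 to 2.75 CPM in Control and 6.5 to 9.24 CPM in Mta123KO labelled 2iL, and 1.74 to 2.12 and 3.47 to 5.70 CPM labelled 48h. Of 5 primitive endoderm markers, 2 were called higher in each culture (Dab2 1.47 and 4.05) and Gata6 lower labelled 2iL (-2.68). Of 6 ES cell markers, Esrrb (1.37) and Klf4 (2.27) were called higher labelled 2iL and none was called in the libraries labelled 48h. The part of other cell types in the levels of Ebf4, Hcn4 and Nobox was not tested.

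The nearest protein-coding genes differed in whether they moved with the 3 genes. Over the 10 nearest neighbours of each, 6 of 20 tested were called higher labelled 2iL and 3 of 19 labelled 48h, against 13.2% and 14.1% of all genes called higher. Nobox lies beside Arhgef5, a guanine nucleotide exchange factor whose start is 44.0 kb from that of Nobox. Arhgef5 rose from 8.16 ± 0.788 to 35.9 ± 17.5 CPM labelled 2iL (log2 2.15) and from 1.59 ± 0.516 to 31.1 ± 16.4 labelled 48h (4.31), and its Mta123KO libraries ran from 16.4 to 51.8 CPM. The 4 other nearest genes of Nobox on the side of Arhgef5 are olfactory receptor genes.

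Around Hcn4, 4 of 8 tested neighbours were called higher labelled 2iL, all on the side before its start. These were Rec114, a factor of meiotic recombination (79.4 kb away, log2 1.73, 9.30 ± 0.614 to 30.4 ± 2.94 CPM), the adhesion protein gene Nptn (1.22), Cd276 (1.07) and Insyn1 (2.77). Labelled 48h, Cd276 alone was called (1.87). None of the neighbours after Hcn4 was called. Around Ebf4, 1 of 6 tested neighbours was called higher and 1 lower labelled 2iL. Idh3b, the nearest at 10.6 kb, had log2 changes of 0.35 and 0.07 and was not called, and Cpxm1 at 102 kb was called higher in both cultures (1.03 and 1.62). Tmc2 was called lower labelled 2iL (-1.31), from 0.423 ± 0.159 to 0.167 ± 0.0906 CPM.

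**Figure D5:**
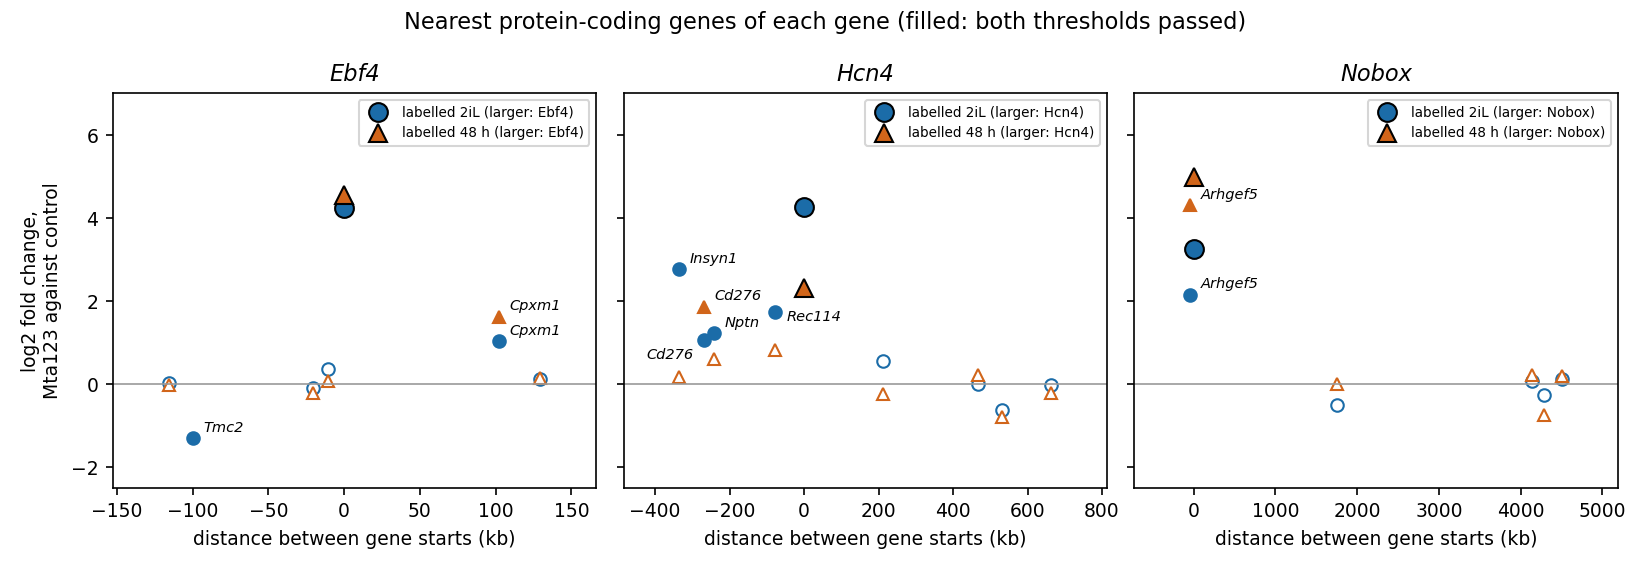
Log2 fold changes of Mta123KO against Control for tested genes among the 10 nearest protein-coding genes of Ebf4, Hcn4 and Nobox, by the distance in kb between gene starts. Filled points passed both thresholds and are named, and the larger points at 0 are the 3 genes. The distance axes differ in range, and the points called higher are Cpxm1 beside Ebf4 and Arhgef5 beside Nobox in both cultures, and 4 genes before Hcn4 labelled 2iL, of which Cd276 alone is called labelled 48h.

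Across the 16 Control and Mta123KO libraries the 3 genes followed each other, with Pearson's r of log2 CPM of 0.873 between Ebf4 and Hcn4, 0.918 between Ebf4 and Nobox and 0.826 between Hcn4 and Nobox. These are descriptions, since the 16 libraries fall into genotypes, cultures and lines that the genes share. By the same measure over 16419 genes, the 5 genes most like Ebf4 were Ak3 (r = 0.987), Kdm1b, Cd74, Tgfa and Gpld1 (0.984). Cd74, the invariant chain of MHC class II, went from 2.24 ± 0.229 to 30.8 ± 7.28 CPM labelled 2iL and from 2.30 ± 0.522 to 33.3 ± 11.6 labelled 48h. The 5 most like Hcn4 were Tnnt3 (r = 0.986), Arhgef40, Sec24b, Bex3 and Fads3 (0.976). Tnnt3, a fast skeletal muscle troponin, shared the fall in Mta123KO between culture labels, from 21.8 ± 17.5 CPM labelled 2iL to 1.40 ± 0.913 labelled 48h, with 0.112 and 0.0348 CPM in Control. The 5 most like Nobox were Tpm1 (r = 0.989), AU015836, Kdm5d, Igf2 and Reep5 (0.979). Igf2, an imprinted growth factor gene, ran from 15.7 to 129 CPM over the Mta123KO libraries labelled 2iL, and had 3.47 ± 1.49 CPM in Control. With a prior count of 0.5 in place of 2 the same 5 genes came first for each of the 3.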

How the data were processed

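RNA was sequenced from ES cells, paired-end for the 16 Control and Mta123KO libraries and single-end for the 18 others. The authors trimmed reads with Trim Galore!, aligned them to GRCm38/mm10 with TopHat2 and made the deposited counts, raw reads per Ensembl gene, with featureCounts. Library kits were strand-specific, and which kit served which library is not given in the sources used here. Gene identifiers were paired with symbols for 48349 of 48709 and 21852 of 22018 genes.

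CPM were computed with TMM scaling in R 4.3.3 and edgeR 4.0.16. Each comparison was fitted with edgeR's quasi-likelihood test on the libraries it concerns, after filterByExpr, with Benjamini-Hochberg adjustment over all genes that passed. A gene was called at an adjusted p under 0.05 and a log2 fold change beyond 1. Alternatives were DESeq2 1.42.0, RLE scaling, no filter, a replicate block, 1 fit for all libraries of a set, libraries of a line summed, spike-in scaling, and each library left out. Libraries of a line were not summed for the interaction or for the tests of single lines. The fits were tested on simulated data. Figures were drawn with Python 3.11.15 and matplotlib 3.10.9. The genes and lists were chosen with earlier results of these data known. Named genes are Ebf4, Hcn4 and Nobox, the targeted genes, list members that were called or stand beside one of the 3 as a relative, the 5 nearest protein-coding genes on either side, and the 5 genes with the highest r to each. Figla, Gdf9, Pax5, Isl1, Nkx2-5 and Taf4b were added after their values were seen, as textbook members of their lists.

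Same-numbered libraries of the 2 cultures come from the same line. Their deviations from the group means correlated at 0.22 to 0.29 in Control and 0.49 to 0.54 in Mta123KO. In the Mta1 set every same-numbered pair correlated above 0.1 (0.445 to 0.641). The main fits do not use this pairing, which enters only in the alternative with a replicate block. Libraries of 1 line differed by more than sampling noise (chi-square per degree of freedom 6.32 to 19.4) and were kept apart. That spread does not show that they are separate cultures. Spike-in counts were used for the 16 libraries alone. Some related and neighbouring genes are not reported here.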

Additional observations from a re-analysis of the deposited data

Results flagged for a closer look

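Nobox in the Control libraries labelled 2iL had 1 value far from the other 3. Library 1_2 stood at 0.457 CPM and the others at 0.373 to 0.380, a gap of 0.918 of the whole range. This was 1 flag in 12 groups of 4 libraries, and chance flags about 1 in 20 groups.

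The change of Hcn4 between genotypes differed between the culture labels, by -1.95 on the log2 scale.

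The Mta123KO lines differed from each other. Line 1 exceeded line 2 in the libraries labelled 2iL by 1.27 for Ebf4, 1.59 for Hcn4 and 2.70 for Nobox, and in those labelled 48h by 1.21 for Ebf4 and 2.32 for Nobox (log2). The change of Hcn4 with culture differed between these lines by -1.26. Each line has 2 libraries a culture, and each difference was tested directly in edgeR.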

How the results depend on the processing

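For Mta123KO against Control, each of the 3 genes kept its direction in both cultures under all 15 alternatives a comparison, and the call was lost in 1 case, Nobox labelled 2iL with the libraries of a line summed (3.26, adjusted p = 0.0802). Over the alternatives the log2 change ran from 4.01 to 4.42 for Ebf4, 3.93 to 4.50 for Hcn4 and 2.81 to 3.58 for Nobox labelled 2iL, and from 4.33 to 4.79, 2.14 to 2.52 and 4.62 to 5.29 labelled 48h. The number of genes called labelled 2iL went from 4470 to 2834 with lines summed. Those lower values come from fits with fewer samples.

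With the replicate block, the Nobox interaction rose to 1.84 (adjusted p = 0.00131) and the Nobox change with culture in Mta123KO turned to 0.0795 (adjusted p = 0.669). No other call for the 3 genes changed with the block, under which the Mta123KO changes labelled 2iL were 4.14 for Ebf4, 4.08 for Hcn4 and 2.81 for Nobox. Same-numbered Control and Mta123KO libraries share only a number (correlations of -0.23 to -0.03 labelled 2iL and -0.09 to 0.02 labelled 48h), as do those of the Mta2 (-0.19 to 0.28) and Mta3 sets (-0.12 to 0.36).

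Changes with culture that had not passed the test varied in sign. Ebf4 in Control had 0.0291 with spike-in scaling and -0.36 to 0.0857 with each library left out, Ebf4 in Mta123KO -0.0234 to 0.42, and Nobox in Mta123KO -0.39 to 0.42. Turned signs came without Control library 1_1 labelled 48h (0.0857) for the first, and without Mta123KO libraries 2_2 labelled 2iL (-0.0085) and 1_2 labelled 48h (-0.0234) for the second. For Nobox they came without 1_1 (0.42) or 1_2 (0.36) labelled 2iL, or 2_1 (0.28) or 2_2 (0.27) labelled 48h. Nobox in Control had -1.75 in the fit of all libraries (adjusted p = 0.128), where the cause was not tested. Hcn4 in Mta123KO had -2.22 with lines summed (adjusted p = 0.241), a fit with 0 calls against 2035.

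In the single mutants, leaving out 1 library gave -1.39 to 0.68 for Ebf4 and -0.72 to 0.31 for Hcn4 in the Mta1 set, where the sign turned without parent replicate 2 (0.68) and parent replicate 1 (0.31). It gave -0.0763 to 0.56 for Ebf4 in the Mta2 set (-0.0763 without wild type replicate 2) and -2.32 to -0.73 for Ebf4 and -2.13 to -1.78 for Hcn4 in the Mta3 set. The number of genes called there ran from 3 to 1724 against 941, being 3, 1724 and 246 without mutant replicates 1, 2 and 3 and 553, 224 and 375 without parent replicates 1, 2 and 3. Depth limits Nobox most, since most of the 18 libraries of the single-mutant set held under 10 of its reads. It limits Hcn4 as well, which also had under 10 reads in most of these libraries.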
